A study of Mus musculus with 8 samples.

Results

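The unfolded protein response and the integrated stress response were described here in mouse liver through 38 listed genes of the IRE1, PERK and ATF6 branches, the ER (endoplasmic reticulum) chaperones and the serine and one-carbon enzymes that ATF4 controls. All 38 symbols matched a row among the 45706 gene rows of the count table. Of these genes 36 passed the filter on low counts and were tested, and Asns and Phgdh, with at most 10 reads in any library, were not. By role the genes were 6 stress sensors, 5 transcription factors, 5 feedback and target genes of the integrated stress response, 5 amino acid and one-carbon enzymes, 11 ER chaperones and 6 genes of ER-associated degradation (ERAD) and the translocon.

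RNA was sequenced from the livers of 8 C57BL/6 mice, 4 of genotype HuR WT and 4 of genotype HuR KO, with 1 library per mouse. HuR is an RNA-binding protein that binds AU-rich elements of mRNAs, and its gene is Elavl1. The deleted exons, the cells in which the gene was deleted, and the age, sex and treatment of the mice are not stated in the labels. The titles also carry an animal number, which is 98 to 100 for WT 3, KO 3 and KO 4 and has 4 digits for the other 5 libraries, and what separates these number series is not stated.

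Cells that make much secreted protein, such as hepatocytes, depend on the ER to fold it. When unfolded protein accumulates, the sensors IRE1 (Ern1), PERK (Eif2ak3) and ATF6 leave the chaperone BiP (Hspa5). IRE1 then splices the Xbp1 mRNA, ATF6 is cut to an active transcription factor, and PERK phosphorylates the translation factor eIF2α. The last step is shared with the kinases HRI (Eif2ak1) and GCN2 (Eif2ak4) and is the core of the integrated stress response, which slows translation while it favours the mRNAs of Atf4 and Ddit3. Counts per gene measure mRNA level only, so neither Xbp1 splicing, nor cutting of ATF6, nor phosphorylation could be read from them.

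Total counts ranged from 18649618 to 31249286 per library. Levels are given as counts-per-million (CPM), with library sizes scaled by TMM, in the order WT 1 to 4 and then KO 1 to 4. Elavl1 was counted at 32.7, 45.7, 42.9 and 46.6 CPM in WT and at 49.4, 56.0, 49.1 and 45.6 CPM in KO. It was therefore not lower in KO (adjusted p = 0.258, edgeR's quasi-likelihood test), and since the deleted exons are unknown this count of the whole gene does not check the labels. Hepatocyte markers were abundant, with a summed level of 143509 to 159660 CPM in WT and 132644 to 154964 CPM in KO. Of 10 markers 0 were called, and Apob and Serpina1b were lower in all 4 KO libraries at an unadjusted p under 0.05.

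Between the genotypes 1 stress response gene passed the test. Calls were made by edgeR's quasi-likelihood test with Benjamini-Hochberg adjustment over 14645 genes, at a threshold of 0.05. Of the 36 tested members, 1 was higher in KO, the mitochondrial serine hydroxymethyltransferase Shmt2, and 0 were lower. Over all tested genes 2.32% were called higher and 1.37% lower. At an unadjusted p under 0.05, 2 members were higher (Shmt2 and Atf3) and 0 lower, where 18.0% of all genes passed in either direction. DESeq2 also called 1 member higher and 0 lower. The median log2 fold change of the members was 0.09, with 23 positive and 13 negative values from -0.35 to 0.67, and the median of all tested genes was -0.005. The median of the members was 0.21 without WT 3, 2.1e-05 without WT 1 and -0.00011 with the number series as a covariate.

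The precision of these values differed among the members. The 95% interval of the fold change lay inside 1.5-fold in both directions for 19 of 36 members. It reached 2-fold for 9, which were Atf3, Ddit4, Chac1, Psat1, Mthfd2, Sdf2l1, Creld2, Manf and Hyou1. Groups did not overlap for Shmt2, Eif2ak4, Mthfd2 and Edem1, which were higher in all 4 KO libraries, and for Edem2, which was lower. Those 4 of 36 and 1 of 36 stand beside 6.19% and 5.01% of all tested genes. In such genes the exact two-sided permutation test over 4 against 4 libraries gives p = 0.0286, the smallest it allows.

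**Figure D1:**
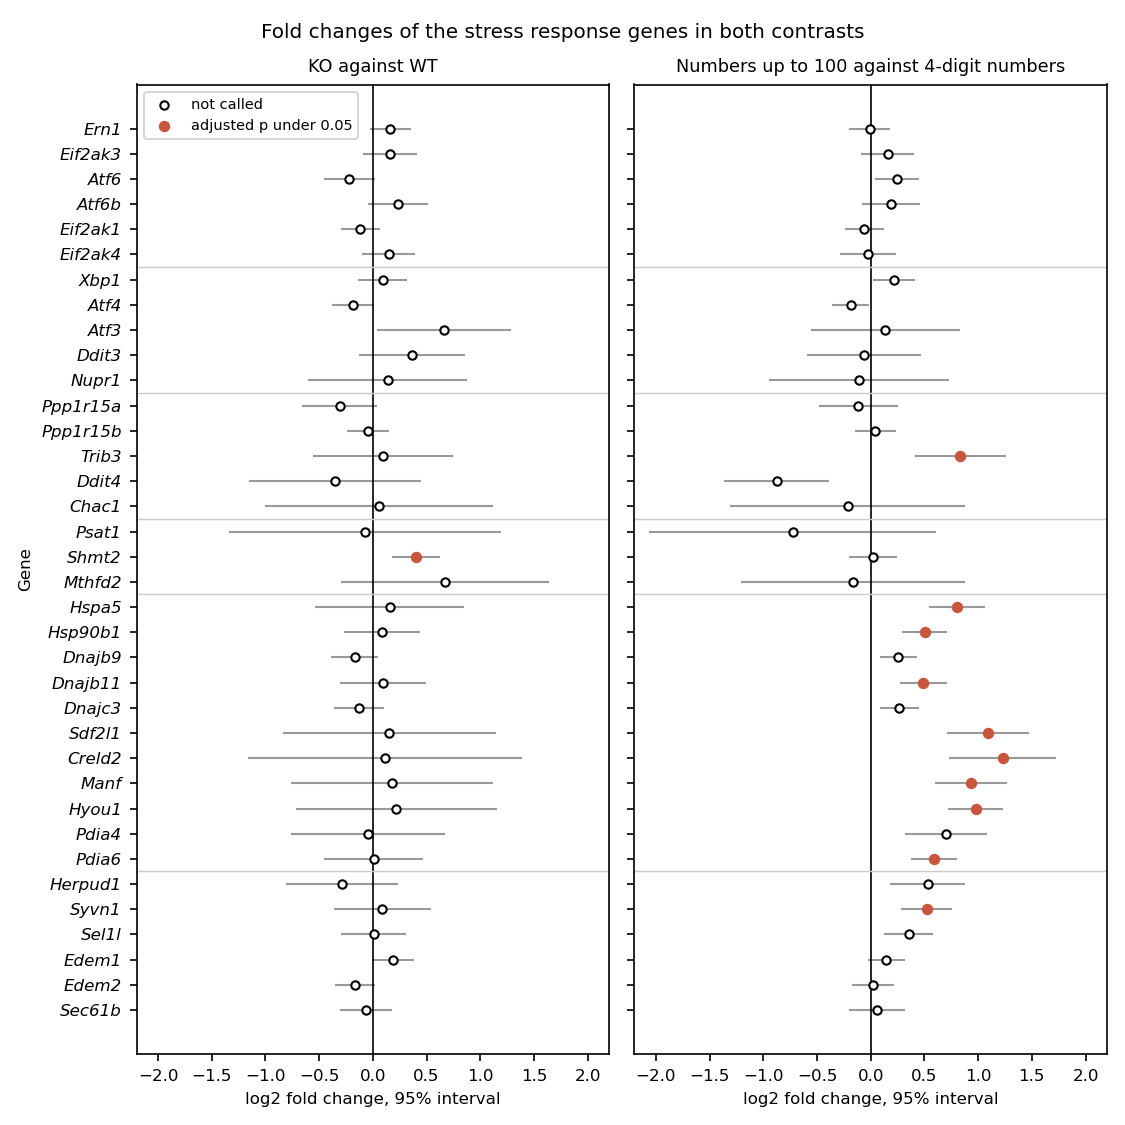
Log2 fold change with its 95% interval for the 36 tested genes, in order of role, from edgeR. The left panel compares libraries labelled KO with WT and the right panel compares libraries with animal numbers up to 100 with those of 4 digits, at equal genotype. Filled points have an adjusted p under 0.05, which is 1 gene on the left and 10 on the right.

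Levels per kilobase of exon differed widely among the members. Over the 8 libraries the means were highest for the ER Hsp90 paralogue Hsp90b1 (202 CPM per kb) and for the ER Hsp70 Hspa5 (188 CPM per kb). The ERAD membrane protein gene Herpud1 (112 CPM per kb) and Shmt2 (81.2 CPM per kb) followed. The spread of Hsp90b1 and of Hspa5 was 47.4 and 81.8 CPM per kb (SD, n = 4) among the WT libraries, and the difference between these genes was not tested. At the other end were the enzymes of serine and asparagine synthesis, Psat1 (0.140 CPM per kb), Asns (0.0970 CPM per kb) and Phgdh (0.0367 CPM per kb). Of the transcription factors, Xbp1 (55.5 CPM per kb) and Atf4 (41.3 CPM per kb) were abundant, and Ddit3 (4.21 CPM per kb), Atf3 (0.932 CPM per kb) and Nupr1 (0.343 CPM per kb) were not.

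None of the 6 stress sensors passed the test, and their summed level was 277 to 315 CPM in WT and 279 to 305 CPM in KO. Atf6 was the sensor with the smallest p and the highest level per length. It was counted at 107, 122, 121 and 94.9 CPM in WT and at 87.4, 84.0, 111 and 100.5 CPM in KO. The groups overlapped, and the log2 fold change was -0.22 (SE 0.11, adjusted p = 0.329). Eif2ak4, the amino acid sensing kinase GCN2, was counted at 12.6, 12.5, 12.99 and 11.5 CPM in WT and at 13.4, 15.2, 13.01 and 13.3 CPM in KO. The lowest KO library lay just above the highest WT library, and the log2 fold change of 0.15 (SE 0.12, adjusted p = 0.556), or 0.087 without KO 2, did not pass. For Ern1, Eif2ak3, Atf6b and the haem-regulated kinase gene Eif2ak1, log2 fold changes were 0.16, 0.16, 0.24 and -0.12, none with an adjusted p under 0.353.

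Among the transcription factors none passed the test. Xbp1 was counted at 170, 161, 209 and 158 CPM in WT and at 193, 166, 189 and 196 CPM in KO. Its log2 fold change was 0.09 (SE 0.11, adjusted p = 0.717), with a 95% interval of 0.907-fold to 1.25-fold, and the log2 value was 0.19 without WT 3 and 0.046 without WT 4. Atf4, the activator that the integrated stress response favours, was counted at 79.3, 75.2, 72.2 and 76.0 CPM in WT. In KO it stood at 71.0, 74.1, 61.6 and 59.6 CPM, so that KO 2 alone lay within the WT range. The log2 fold change was -0.19 (SE 0.09, adjusted p = 0.31), and within the libraries of 4-digit number the difference of mean log2 CPM was -0.08.

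Ddit3, which encodes the pro-apoptotic factor CHOP, was counted at 5.61, 7.19, 7.40 and 4.94 CPM in WT and at 12.5, 5.82, 6.45 and 7.78 CPM in KO. KO 1 was high and the other KO libraries lay close to the WT range, with a log2 fold change of 0.36 (SE 0.23, adjusted p = 0.447), or 0.08 without KO 1. Atf3, an ATF/CREB factor also induced by other stresses, was counted at 2.11, 1.52, 1.12 and 1.44 CPM in WT and at 1.74, 2.18, 3.07 and 2.86 CPM in KO. It rested on 26 to 79 reads per library, and the groups overlapped. The log2 fold change was 0.67 (SE 0.29, adjusted p = 0.241). The difference of mean log2 CPM was 0.22 among the libraries of 4-digit number and 1.34 among those numbered up to 100. Nupr1, a small stress-induced chromatin protein, ranged from 0.694 to 1.01 CPM over all 8 libraries.

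None of the 5 feedback and target genes of the integrated stress response passed the test. Ppp1r15a and Ppp1r15b encode the phosphatase subunits GADD34 and CReP, which reverse eIF2α phosphorylation. Ppp1r15a was counted at 16.4, 11.4, 10.1 and 10.8 CPM in WT and at 10.6, 8.60, 10.7 and 9.44 CPM in KO. WT 1 was the high library, and the log2 fold change was -0.31 (SE 0.16, adjusted p = 0.338), or -0.13 without WT 1. Ppp1r15b, the constitutive subunit, was counted at 145, 135, 135 and 128 CPM in WT and at 117, 138, 142 and 129 CPM in KO. Its groups overlapped, at a log2 fold change of -0.04 (SE 0.09, adjusted p = 0.861), and with an interval of 0.848-fold to 1.11-fold.

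Trib3, a pseudokinase induced by ATF4 and CHOP, ranged from 3.22 to 8.92 CPM and the glutathione-degrading enzyme gene Chac1 from 0.311 to 2.05 CPM. The mTORC1 inhibitor gene Ddit4 ranged from 4.89 to 14.9 CPM. The median within-genotype SD of these 5 genes was 0.54 on the log2 scale, against 0.27 for all members and 0.23 for all tested genes.

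Shmt2 was the 1 of 36 tested members called higher in KO, where 2.32% of all tested genes were called higher. It converts serine to glycine in mitochondria, and the gene lies at chr10:127517123-127522444 on the minus strand (mm10). It was counted at 144, 143, 174 and 184 CPM in WT and at 215, 222, 220 and 195 CPM in KO. All 4 KO libraries lay above all WT libraries, with means of 161 ± 21.2 CPM and 213 ± 12.3 CPM (SD, n = 4 each). The fold was 1.32, with a 95% interval of 1.13 to 1.55, and the log2 fold change 0.40 (SE 0.11, adjusted p = 0.0498, exact permutation p = 0.0286). The difference of mean log2 CPM was 0.49 among the libraries of 4-digit number and 0.25 among those numbered up to 100.

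The call of Shmt2 lay at the threshold. It passed under 7 of 17 alternatives, at adjusted p from 0.0107 to 0.167, and was lost when WT 1, WT 2 or any 1 of the KO libraries was left out. Markers of some other cells moved with the genotype: 10 of 12 bile duct markers were called higher, beside 2.32% of all tested genes. They summed to 70.4 to 95.2 CPM in WT and to 202 to 306 CPM in KO. Likewise 4 of 9 stellate cell and fibroblast markers were called higher, from a summed 392 to 434 CPM to 480 to 569 CPM. Of the endothelial, macrophage, lymphocyte, plasma cell, neutrophil and red cell markers 0 were called. The part of bile duct cells, stellate cells and fibroblasts in the level of Shmt2 was not tested. In a whole liver a change in the number of cells of a type and a change in RNA per cell cannot be told apart.

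Mthfd2, the mitochondrial folate enzyme that acts next to Shmt2, was counted at 0.510, 0.493, 0.463 and 0.166 CPM in WT and at 0.697, 0.832, 0.544 and 0.602 CPM in KO. All KO libraries lay above all WT libraries, but on 3 to 24 reads each, and the log2 fold change of 0.67 (SE 0.45, adjusted p = 0.473) did not pass. Psat1, an enzyme of serine synthesis, ranged from 0.150 to 1.16 CPM with the extremes both in KO. Asns, asparagine synthetase, had 3 to 10 reads per library and Phgdh, the first enzyme of serine synthesis, 0 to 5.

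**Figure D2:**
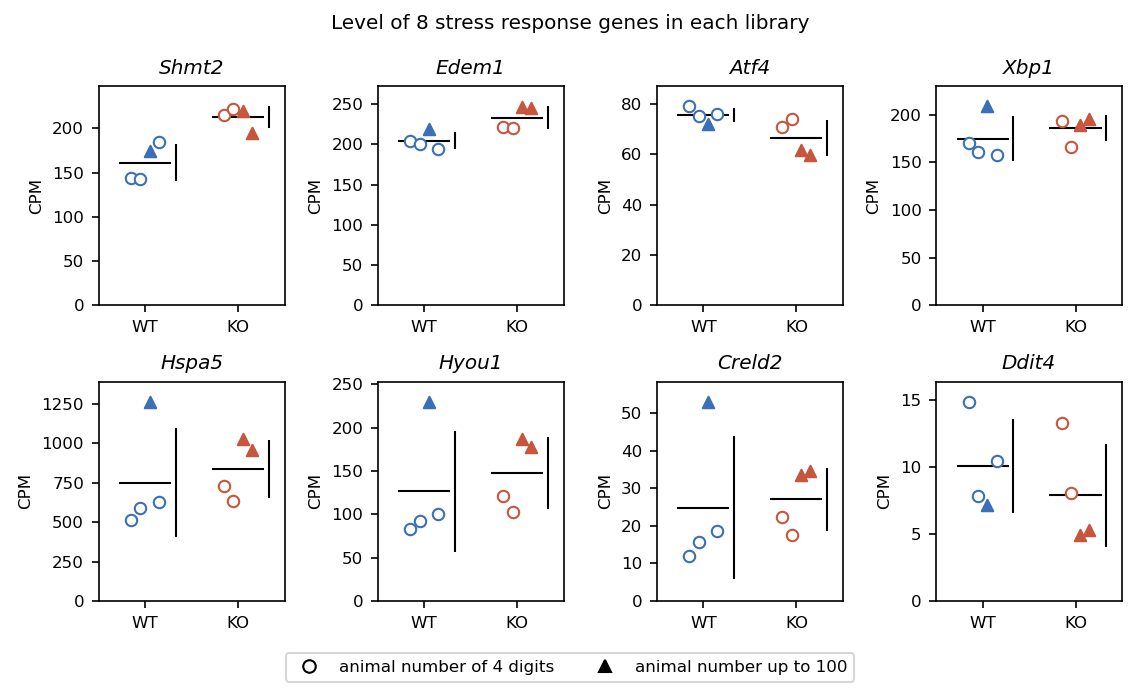
CPM of 8 of the genes in each library, by genotype; circles are animals with 4-digit numbers and triangles animals numbered up to 100, horizontal lines are means and vertical lines the SD over 4 libraries. The KO libraries of Shmt2 (195 to 222 CPM) lie above the WT libraries (143 to 184 CPM), while for Hspa5, Hyou1 and Creld2 the triangles lie above the circles in both genotypes.

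The promoters of the members were searched for the elements that the pathway's factors are known to bind, since many of these genes moved together in the data below. Of 38 members 34 had a promoter in the RefSeq table (GRCm38.p6), which spans 250 bases before to 50 bases after the start. The ER stress response element, searched on both strands as CCAAT and CCACG with 9 bases of any kind between them, is bound by ATF6 together with NF-Y. It stood in 6 of these 34 promoters, those of Hspa5, Hsp90b1, Creld2, Pdia6, Syvn1 and Dnajc3, and in 39 of all 32851 promoters (0.119%). The related ERSE-II, ATTGG and CCACG with 1 base of any kind between them, stood in Dnajb11 and Herpud1 and in 0.0365% of all promoters. The letters TGACGTGG, an XBP1 and ATF6 site, stood in 0 members and 0.676% of promoters. The composite site of CHOP and ATF4, TGATGNAA, stood in Atf3, Chac1, Trib3, Asns, Nupr1 and Herpud1 and in 3.97% of all promoters.

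The 140 bases before the start are shown for the 6 genes with the ER stress response element and for Herpud1, to show where these letters lie, 5′ to 3′ on the gene's strand. Capitals mark the matched letters, and in Herpud1 they mark first the composite site and then ERSE-II. The windows are chr2:34771950-34772089 (plus strand) for Hspa5, chr10:86705445-86705584 (minus) for Hsp90b1, chr15:88819506-88819645 (plus) for Creld2 and chr12:17266449-17266588 (plus) for Pdia6. Those of Syvn1, Dnajc3 and Herpud1 are chr19:6046436-6046575, chr14:118937792-118937931 and chr8:94386289-94386428, all on the plus strand.
Hspa5: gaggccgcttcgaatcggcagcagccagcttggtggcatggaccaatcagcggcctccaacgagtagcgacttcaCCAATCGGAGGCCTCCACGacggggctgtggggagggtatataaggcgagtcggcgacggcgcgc
Hsp90b1: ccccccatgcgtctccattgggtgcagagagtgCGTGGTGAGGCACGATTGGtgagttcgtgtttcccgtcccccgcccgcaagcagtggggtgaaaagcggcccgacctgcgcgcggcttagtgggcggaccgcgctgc
Creld2: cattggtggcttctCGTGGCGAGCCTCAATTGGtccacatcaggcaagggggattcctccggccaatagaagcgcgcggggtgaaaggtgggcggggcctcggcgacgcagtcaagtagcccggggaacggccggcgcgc
Pdia6: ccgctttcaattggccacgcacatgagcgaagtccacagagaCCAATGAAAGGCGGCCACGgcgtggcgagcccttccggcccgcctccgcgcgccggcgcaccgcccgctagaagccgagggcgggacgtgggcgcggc
Syvn1: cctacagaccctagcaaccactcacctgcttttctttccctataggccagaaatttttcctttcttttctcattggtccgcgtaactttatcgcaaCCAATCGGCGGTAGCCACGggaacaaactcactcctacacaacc
Dnajc3: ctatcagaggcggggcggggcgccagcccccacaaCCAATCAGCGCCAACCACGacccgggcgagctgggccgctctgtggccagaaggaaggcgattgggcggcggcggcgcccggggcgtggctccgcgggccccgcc
Herpud1: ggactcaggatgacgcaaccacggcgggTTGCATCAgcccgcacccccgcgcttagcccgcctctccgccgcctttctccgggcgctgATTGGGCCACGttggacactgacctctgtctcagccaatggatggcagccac
The element began 65 bases before the start in Hspa5, 44 in Syvn1, 98 in Pdia6 and 105 in Dnajc3. It lay on the opposite strand in Creld2 and in the copy of Hsp90b1 shown. Hsp90b1 held a further match from -212 to -194, outside the window shown. A match of letters is a description and not evidence of binding in these livers.

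Of the 11 ER chaperone genes 0 were called between the genotypes, with a median log2 fold change of 0.09 from -0.17 to 0.22. This median rose to 0.32 without WT 3. It was -0.036 without WT 2, -0.021 without WT 1, -0.00095 without KO 3 and -0.014 with the number series as a covariate. Their summed level was 1901, 2028, 3659 and 2191 CPM in WT and 2317, 2020, 3037 and 2944 CPM in KO. WT 3, KO 3 and KO 4 were the high libraries, and these are the animals numbered 98 to 100. Each of the 11 chaperone genes had its highest level in WT 3. Their median within-genotype SD was 0.47 on the log2 scale, against 0.23 for all tested genes.

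Hspa5, which encodes BiP and lies at chr2:34771970-34777547, was counted at 515, 591, 1264 and 631 CPM in WT and at 729, 632, 1027 and 959 CPM in KO. The KO range lay inside the WT range, at a log2 fold change of 0.16 (SE 0.30, adjusted p = 0.844) for KO against WT. It was 0.53 (adjusted p = 0.0508) without WT 3 and 0.0082 without WT 1. Hsp90b1 was counted at 659, 709, 1076 and 726 CPM in WT and at 772, 668, 961 and 956 CPM in KO. Here too the same libraries were high, and the log2 fold change was 0.08 (SE 0.17, adjusted p = 0.849), or 0.27 without WT 3. Dnajb9, a cochaperone of BiP and a known XBP1 target, was counted at 65.0, 70.8, 85.4 and 70.5 CPM in WT and at 59.3, 60.8, 66.9 and 72.3 CPM in KO. Its log2 fold change was -0.17 (SE 0.10, adjusted p = 0.415), the smallest p among the chaperones, and -0.08 without WT 3.

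**Figure D3:**
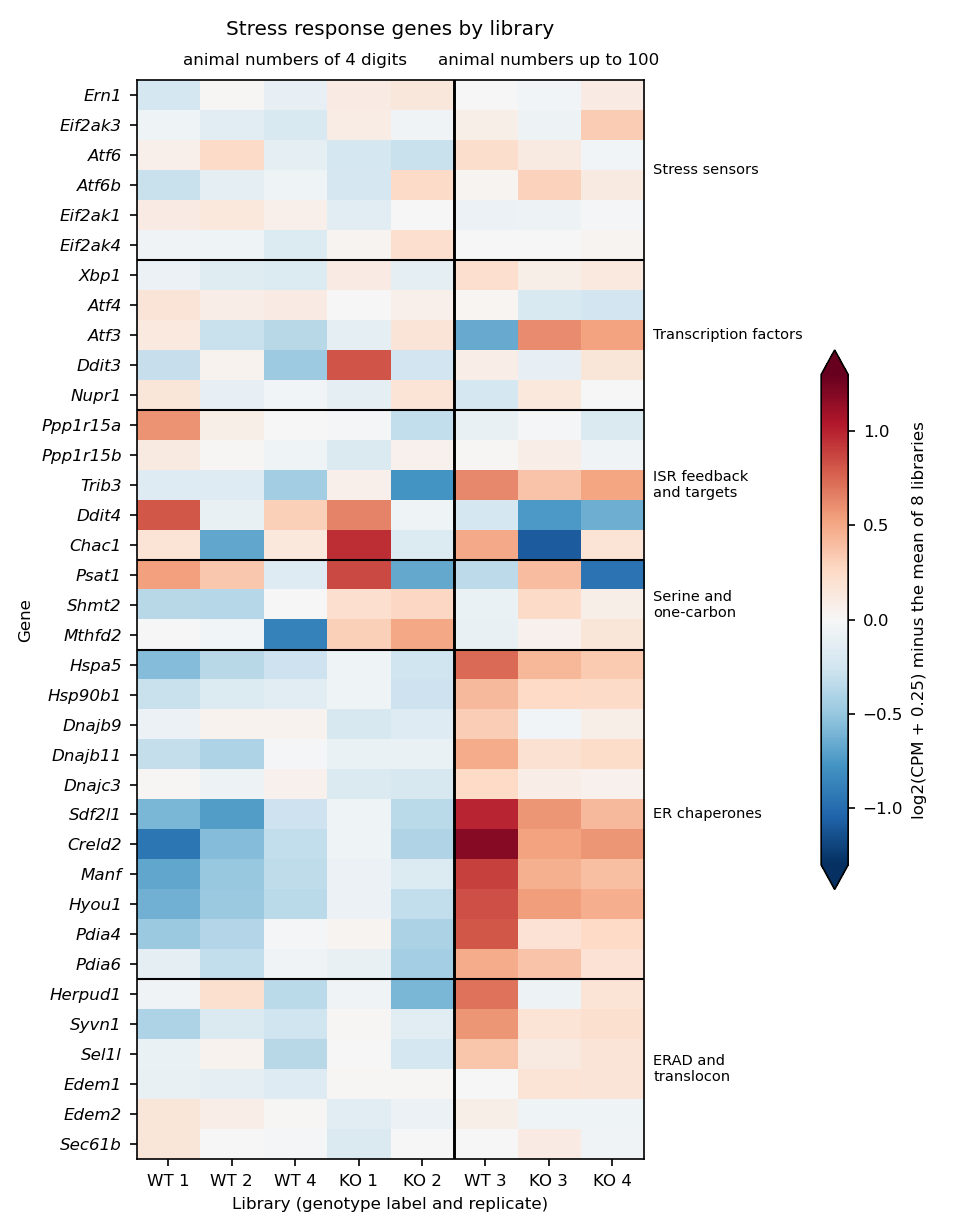
Level of each tested gene in each library as log2(CPM + 0.25) minus the gene's mean over the 8 libraries, with libraries ordered by animal-number series and then genotype. WT 3, KO 3 and KO 4 are above the mean for most ER chaperones, and all 11 chaperones are highest in WT 3.

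None of the 6 ERAD and translocon genes was called between the genotypes. Edem1 and Edem2 encode lectins that pass misfolded glycoproteins to degradation. Edem1 was counted at 204, 201, 219 and 194 CPM in WT and at 221, 220, 246 and 245 CPM in KO, with no overlap. Its log2 fold change was 0.19 (SE 0.09, adjusted p = 0.296). Edem2 went the other way, at 34.3, 32.5, 32.4 and 30.9 CPM in WT and at 27.8, 29.1, 29.5 and 29.4 CPM in KO. Again the groups did not overlap, and the log2 fold change of -0.17 (SE 0.09, adjusted p = 0.329) did not pass.

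Herpud1 was counted at 245, 294, 414 and 199 CPM in WT and at 246, 168, 242 and 288 CPM in KO. WT 3 was highest and KO 2 lowest, with a log2 fold change of -0.29 (SE 0.23, adjusted p = 0.575), which was -0.06 without WT 3. The ubiquitin ligase gene Syvn1 (HRD1) and its partner Sel1l had log2 fold changes of 0.09 and 0.01, and the translocon subunit gene Sec61b one of -0.06.

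The libraries were next compared by animal-number series, 3 numbered up to 100 against 5 of 4 digits, with genotype as a covariate. This comparison was added after the levels above had been seen. By edgeR's quasi-likelihood test with Benjamini-Hochberg adjustment 10 of 36 members were higher in the libraries numbered up to 100 and 0 were lower, where 1.43% of all tested genes were called higher and 0.976% lower. The 10 were Trib3, Hspa5, Hsp90b1, Dnajb11, Sdf2l1, Creld2, Manf, Hyou1, Pdia6 and Syvn1, of which 8 are ER chaperones. All 3 libraries numbered up to 100 lay above all 5 others in 13 members, 10 of them chaperones, where 5.56% of all genes did so. The median log2 difference was 0.70 over the 11 chaperones, 0.17 over all members and 0.004 over all tested genes.

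The largest differences among the called members were those of Creld2 and Sdf2l1. Creld2, an ER protein with disulphide isomerase activity, was counted at 12.0, 15.7, 53.0 and 18.6 CPM in WT and at 22.3, 17.6, 33.5 and 34.6 CPM in KO. It was 2.35-fold higher in the animals numbered up to 100 (95% interval 1.66 to 3.32, adjusted p = 0.0288). Sdf2l1, a partner of ER DnaJ proteins, was counted at 5.65, 5.14, 17.4 and 7.10 CPM in WT and at 8.32, 6.73, 13.0 and 11.6 CPM in KO. It was 2.13-fold higher (interval 1.64 to 2.77, adjusted p = 0.00574).

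Hyou1 encodes the nucleotide exchange factor GRP170 of BiP. It was counted at 82.9, 91.8, 230 and 101 CPM in WT and at 122, 103, 187 and 178 CPM in KO, and was 1.97-fold higher (interval 1.65 to 2.35, adjusted p = 0.000838). Manf, a secreted ER-stress protein that binds BiP, was counted at 35.8, 40.5, 106 and 45.4 CPM in WT and at 54.0, 50.6, 78.7 and 75.2 CPM in KO. It was 1.91-fold higher (interval 1.51 to 2.41, adjusted p = 0.0147). In each of these genes the 3 high libraries were WT 3, KO 3 and KO 4.

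Hspa5 was 1.74-fold higher (interval 1.46 to 2.09, adjusted p = 0.00293). The disulphide isomerase gene Pdia6 was 1.51-fold higher, the BiP cochaperone gene Dnajb11 1.41-fold, Hsp90b1 1.42-fold and Syvn1 1.44-fold, with adjusted p of 0.00702, 0.0231, 0.0153 and 0.0244. Trib3 was 1.78-fold higher (adjusted p = 0.0406). The other chaperones did not pass, with Pdia4 at 1.63-fold (adjusted p = 0.0702), Dnajc3, the PERK inhibitor P58IPK, at 1.20-fold and Dnajb9 at 1.19-fold, both at an adjusted p of 0.113. Of the 8 called genes with a promoter in the table, 5 held the ER stress response element shown above and 1, Dnajb11, held ERSE-II. The other called genes, Hyou1 and Manf, had no promoter there. Over all 9 chaperones with a promoter, called or not, 5 held the element, and 0.119% of all promoters did. The part of the element in the difference between the series was not tested.

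No sensor or transcription factor was called between the number series. The log2 differences were 0.21 for Xbp1 (adjusted p = 0.255), -0.19 for Atf4 (adjusted p = 0.261) and -0.06 for Ddit3 (adjusted p = 0.93). Ddit4 went against the chaperones. It was counted at 14.9, 7.85, 7.14 and 10.5 CPM in WT and at 13.3, 8.08, 4.89 and 5.30 CPM in KO, lowest in all 3 animals numbered up to 100, at a log2 difference of -0.87 (SE 0.23, adjusted p = 0.0654).

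The calls between the series depended on WT 3. Without it 1 of the 10 calls remained, that of Hyou1 (log2 difference 0.70, adjusted p = 0.0278). All 10 log2 differences stayed positive under each of 15 alternatives. Without WT 3 they were 0.55 for Pdia6, 0.77 for Trib3, 0.41 for Hsp90b1 and 0.54 for Hspa5, and 0.77 for Creld2, 0.71 for Sdf2l1, 0.56 for Manf, 0.31 for Dnajb11 and 0.25 for Syvn1. Without KO 2 or without KO 4, 5 members were called, and within the KO libraries alone, 2 against 2, 3 were called, namely Creld2, Manf and Hyou1. Leaving out KO 2 or KO 4 ended the calls of Trib3, Creld2, Hsp90b1, Dnajb11 and Syvn1, leaving out WT 2 or WT 4 those of Trib3 and Creld2, and leaving out WT 1 or KO 3 that of Trib3. The chaperone median within KO was 0.53. For KO against WT, leaving out WT 3 brought Manf (log2 fold change 0.67, adjusted p = 0.026) and Syvn1 (0.36, adjusted p = 0.045) past the threshold beside Shmt2. Whether the genotype difference itself depended on the number series was fitted as an interaction. It is given by its size only, because 1 WT library alone is numbered up to 100. The interaction value is the log2 difference of KO from WT among the animals numbered up to 100, minus that among the others. Over the chaperones it ranged from -1.02 for Creld2 to 0.017 for Dnajc3, and it was negative for every chaperone except Dnajc3. In the WT libraries 1 animal alone is numbered up to 100, so its own deviation and that of the series cannot be told apart there.

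Other genes moved with the number series. Of 11 cytosolic heat shock genes, 5 were called higher in the animals numbered up to 100, beside 1.43% of all tested genes. They were Hspa8, Hsp90aa1, Hsp90ab1, Dnajb1 and Dnaja1. The summed level of the list was 1969 to 2359 CPM against 1163 to 1757 CPM, and its median log2 difference was 0.50. Of 12 circadian clock genes, Npas2 (-2.05), Cry1 (-1.56) and Arntl (-1.22) were called lower and Per2 (1.02) higher on the log2 scale. Over all tested genes 0.976% were called lower and 1.43% higher. The largest difference of that list, 3.37 for Dbp, did not pass (adjusted p = 0.176). At an unadjusted p under 0.05 the list had 5 higher and 4 lower genes, beside 1349 and 1073 of all 14645 tested genes. Npas2 was counted at 10.8, 8.88, 1.98 and 12.3 CPM in WT and at 15.6, 14.2, 4.27 and 4.10 CPM in KO, so that the libraries with the highest chaperone levels had the lowest Npas2. Of 12 tested immediate early genes 0 were called, at a summed 410 to 470 CPM against 288 to 648 CPM. The part of the heat shock and clock genes in the chaperone difference was not tested.

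Plasma cells also hold much ER chaperone, so their markers were read. Tnfrsf17 had 0 reads in all libraries, Mzb1 reached at most 0.463 CPM and Jchain at most 1.97 CPM, and 0 of the 2 tested plasma cell markers were called. The whole list of 5 summed to 305 to 428 CPM in the animals numbered up to 100 and to 349 to 401 CPM in the others, nearly all of it Sdc1, which hepatocytes also express. The part of plasma cells in the chaperone difference was not tested. Of 10 hepatocyte markers 0 were called between the series.

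The rest of the pathway was read from 6 further lists of 109 genes, of which 105 were tested. Between the genotypes 0 were higher and 2 were lower, Erlec1 and Gpt2, beside 2.32% and 1.37% of all tested genes. At an unadjusted p under 0.05, 4 were higher and 11 lower, beside 1348 and 1295 of all 14645 tested genes. Erlec1, an ERAD lectin, was counted at 47.2, 48.3, 40.3 and 37.2 CPM in WT and at 33.3, 30.1, 30.2 and 27.6 CPM in KO. The groups did not overlap, and it fell by 0.51 on the log2 scale (SE 0.11, adjusted p = 0.0152). Gpt2, the mitochondrial alanine transaminase and an ATF4 target, was counted at 665, 672, 468 and 587 CPM in WT and at 377, 484, 403 and 363 CPM in KO. WT 3 lay below KO 2, and it fell by 0.56 on the log2 scale (SE 0.13, adjusted p = 0.0325). The call of Erlec1 was lost without WT 1, WT 2, KO 3 or KO 4, and that of Gpt2 without WT 1, WT 2, WT 4, KO 1, KO 3 or KO 4.

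In the lists without a call the gene with the smallest p is given for each. The BiP exchange factor gene Sil1 was counted at 42.0, 38.6, 38.6 and 39.2 CPM in WT and at 30.2, 32.8, 32.5 and 32.9 CPM in KO. It did not overlap between the genotypes, at a log2 fold change of -0.30 (SE 0.09, adjusted p = 0.0647). The log2 fold changes were -0.15 for the translocon gene Sec62 (adjusted p = 0.387), -0.21 for the BAX inhibitor gene Tmbim6 (adjusted p = 0.275) and -0.23 for the glycyl-tRNA synthetase gene Gars (adjusted p = 0.158). The median log2 fold changes of the 6 lists lay between -0.13, for 20 other ER folding genes, and 0.04, for 12 tRNA synthetases.

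Between the number series 4 of the 105 were higher and 1 lower, beside 1.43% and 0.976% of all tested genes. The higher genes were the lectin chaperone Canx (1.38-fold), the disulphide isomerase Pdia3 (1.36-fold), the ER oxidase Ero1lb (1.55-fold) and the ERAD gene Derl3 (3.72-fold, at 0.164 to 1.75 CPM). The threonyl-tRNA synthetase gene Tars was the lower gene (0.710-fold). Of the 81 of these genes with a promoter in the table, 3 held the ER stress response element, namely Calr, Canx and Derl3. Of the same 81, 0 held ERSE-II, 4 held TGACGTGG (Txndc11, Txndc5, Ube2j1 and Vcp) and 13 held TGATGNAA. The last 2 sites stood in 0.676% and 3.97% of all promoters.

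**Figure D4:**
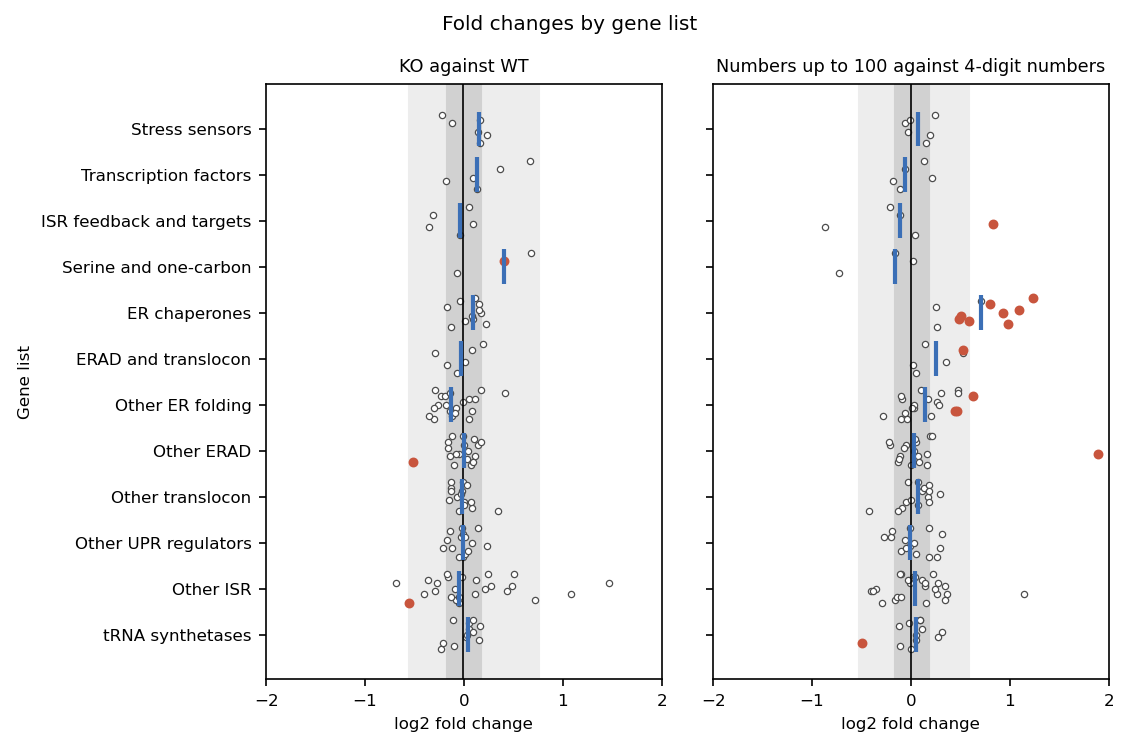
Log2 fold change of every tested gene in the 6 role groups and the 6 further pathway lists, for KO against WT (left) and animal numbers up to 100 against 4 digits (right). Blue bars are medians, filled points have an adjusted p under 0.05, and grey bands span the 25th to 75th and the 5th to 95th percentiles of all tested genes. The ER chaperones have a median of 0.09 on the left and 0.70 on the right.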

How the data were processed

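Liver RNA of 8 mice was sequenced from strand-marking, mRNA-enriched libraries. The deposited table holds raw counts of reads per gene, which the authors made with featureCounts 1.5.1 (strand setting 2, minimum mapping quality 1, Ensembl release 81), per the file headers. Alignment with GSNAP (2017-03-17) to mm10 and demultiplexing with bcl2fastq 2.19.1 are named in the submitters' processing notes. Multi-mapping reads were not counted under the recorded command. All 92 spike-in rows held 0 counts and were left out. The libraries are separate animals, and no pair of them came near sampling noise (smallest chi-square per degree of freedom 16.8).

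From these counts, genes were filtered with filterByExpr (minimum count 10), scaled by TMM and tested by edgeR 4.0.16 (glmQLFit with robust estimation, glmQLFTest, R 4.3.3), with Benjamini-Hochberg adjustment over 14645 genes and calls at an adjusted p under 0.05. Fold changes are those of the edgeR fit at its default prior count, and SEs derive from the quasi-likelihood F. Log2 CPM, with a prior count of 2, gave the SDs on the log2 scale. It also gave the genotype differences of single genes within a number series. Single genes were also compared by exact two-sided permutation of log2 CPM. The steps were tested on simulated counts. Alternatives were RLE and upper quartile scaling, other filters, DESeq2 1.42.0, limma-voom (limma 3.58.1), a replicate block, the number series, and each library left out. The replicate numbers were not treated as pairs, because the labels give no shared animal and the deviations of same-numbered libraries correlated at 0.025, 0.025, 0.12 and -0.15.

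The members and lists were chosen with earlier results of these data known, and the comparison of number series and its alternatives were added after the values were seen. Values in every library are given for members called or not overlapping between genotypes, for the member of each role with the smallest p and with the highest level per length, and for Atf4, Xbp1, Ddit3 and Hspa5. Of each other pathway list the called genes, or else the gene with the smallest p, are named. Members called between the number series, Ddit4 and Npas2 were named after their values were seen. Promoters were read from a RefSeq table. Protein sequences were not analysed here.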

Additional observations from a re-analysis of the deposited data

Results flagged for a closer look

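For each of the 36 tested genes, the 4 WT and the 4 KO libraries were checked for a single library that lay far from the other 3, as a share of the group's whole range (Dixon's test at its 95% critical value). Of 72 groups 10 held such a library, where chance gives about 1 in 20 groups, and genes that vary together across libraries are not independent. In 7 of the 10 the library was WT 3, at its top. WT 3 stood at 1264 CPM for Hspa5, where the next WT library had 631 CPM, and at 1076 CPM for Hsp90b1 (next 726 CPM). It stood at 17.4 CPM for Sdf2l1 (next 7.10 CPM) and at 53.0 CPM for Creld2 (next 18.6 CPM). For Manf it had 106 CPM (next 45.4 CPM), for Hyou1 230 CPM (next 101 CPM) and for Syvn1 127 CPM (next 74.3 CPM). In the others, KO 2 was high for Eif2ak4 at 15.2 CPM, WT 4 was low for Mthfd2 at 0.166 CPM on 3 reads, and WT 1 was high for Sec61b at 16.2 CPM.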

How the results depend on the processing

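For KO against WT, no member was called lower under any alternative, and the members called higher numbered 0 with RLE scaling, limma-voom, the replicate block or the 4-digit libraries alone, and 0 to 3 with each library left out. The replicate block, with the replicate number in the fit, did not pair the animals by any label, and of the 8 libraries 2 correlated best with their own number. Genes called over the whole table numbered 613 higher and 495 lower with DESeq2, 328 lower without the filter, 308 lower with the number series as a covariate and 215 higher in the 4-digit libraries alone. With each library left out they ranged from 151 to 710 higher and from 71 to 534 lower, in each case lowest without WT 2 and highest without WT 3. Of the other pathway genes 1, Gdf15, was higher with DESeq2 (log2 fold change 1.47, adjusted p = 0.00545) and with limma-voom (1.49, adjusted p = 0.0179). It was not called in the main fit. Those lower numbered 4, 9, 6 and 1 without the filter, with DESeq2, with the covariate and in the 4-digit libraries. Left-out libraries gave 0 to 2 higher and 0 to 4 lower.

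Median log2 fold changes for KO against WT ranged with a library left out from 2.1e-05 to 0.21 over all members and from -0.036 to 0.32 over the chaperones, highest without WT 3 in both. They moved for the transcription factors to 0.23 under a filter of 1 CPM in 4 libraries, which drops low genes, and to 0.084 to 0.23 with a library left out. The feedback genes ranged from -0.35 to -0.015. Other regulators of the response stood at 0.015 with upper quartile scaling, at -0.045 both with the covariate and in the 4-digit libraries, and at -0.056 to 0.015 with a library left out. The tRNA synthetases stood at -0.055 in the 4-digit libraries. Hsp90b1 changed sign to -0.031 with the covariate and ranged from -0.0017 to 0.27 with a library left out, and Ppp1r15b from -0.079 to 0.010. The causes were not tested.

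Between the number series the whole table gave 546 higher and 352 lower genes without the filter, 398 and 271 with DESeq2, and 65 and 44 in KO alone. Left-out libraries gave 31 to 250 higher and 25 to 149 lower. Members called higher numbered 3 in KO alone, all of them chaperones, and 1 to 12 with a library left out, of which 1 to 9 were chaperones. Members called lower numbered 1, Ddit4, without the filter and with DESeq2, and 0 to 1 with a library left out. The chaperone median was 0.53 in KO alone and 0.54 to 0.88 with a library left out, and the member median 0.16 to 0.25. With 4 libraries per genotype, 9 members had intervals that reached 2-fold, both at few reads (Mthfd2, 3 to 24 per library) and at many (Hyou1, 1820 to 6958).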
